A study of Rattus norvegicus with 2 samples.

Results

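The complement components and receptors described here are 9 genes, C1s, C2, C3, Cfb, C3ar1, C5ar1, C6, C7 and Serping1, and a probe was taken as a member when the array design gave it 1 of these gene names. Of the 9 genes, 8 were found, with 11 probes, among 36174 gene names and 45598 probes other than controls. C7 was the name of no probe, and probes for a transcript described as C7 are given separately. Gene expression was measured in cervical lymph nodes of male Sprague-Dawley rats aged 10 to 12 weeks, on 1 array for control rats without stress (C) and 1 array for rats under restraint stress (RS). The labels give no restraint time, and neither they nor the study's methods state the number of rats behind each RNA or any pooling. With 1 array per group, every difference below compares a pair of arrays, has no replicate check and was given no p-value.

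Complement is a cascade of blood and tissue proteins that tags particles for uptake, releases small inflammatory fragments and can open pores in membranes. The classical and lectin pathways start when recognition proteins bind a target and switch on attached proteases, the alternative pathway amplifies the reaction on surfaces, and all of them meet at the cleavage of C3. In lymph nodes, macrophages and stromal cells make several components, and complement receptors on B cells and follicular dendritic cells hold antigen that carries C3 fragments.

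The sequences of 4 probes are shown first, because Cfb was measured by a single probe that holds a repeated pattern described below, and the other 3 are probes of its genomic neighbour C2, of the central component C3 and of C6 (probe 2). Each probe is 60 bases long, is written 5′ to 3′ as in the array files, and has in capitals any stretch of at least 6 bases in which A and G alternate.
Cfb: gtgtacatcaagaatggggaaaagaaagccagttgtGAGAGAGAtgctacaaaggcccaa
C2: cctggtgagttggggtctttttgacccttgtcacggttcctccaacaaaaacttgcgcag
C3: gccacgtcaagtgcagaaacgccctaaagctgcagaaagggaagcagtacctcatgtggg
C6: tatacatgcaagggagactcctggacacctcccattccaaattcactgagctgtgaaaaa
The Cfb probe held an alternating stretch of 8 bases, GAGAGAGA, beginning at base 37 from its 5′ end. None of the other 10 member probes had a stretch longer than 4 bases. Of all 45598 probes, 3.99% had a stretch of 6 or more bases and 0.395% a stretch of 8 or more, counted on the strand of the probe.

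Intensity is the brightness of a spot after background subtraction, and a normalized level is its log2 value minus the 75th percentile of the array, which was 189 in C and 176 in RS. All 11 member probes were marked as well above background on both arrays by the scanner software, as were 24946 of all probes in C (54.7%) and 25033 in RS (54.9%). A difference is RS minus C of the normalized log2 levels. Its spot error comes from the scanner software's own error for the spots of that probe. This error covers the reading of spots and leaves out the variation between rats. The interval given with a difference is the 95% interval of this reading error. Where a gene had several probes, the brightest on average represented it. Over the 21096 genes above background on at least 1 array, the median difference was 0.016, 730 genes (3.46%) were higher on the RS array by 2-fold or more and 903 (4.28%) were lower by as much.

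Of the 8 members, C6 was higher by at least 2-fold, Cfb was lower by at least 2-fold, and 6 lay within 2-fold. At 1.5-fold, C6, C5ar1 and C3ar1 were higher and Cfb was lower, where 7.97% of all genes were higher and 8.46% were lower. The median difference of the members was 0.29. C1s, C2, C3 and Serping1 lay within 1.5-fold.

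**Figure D1:**
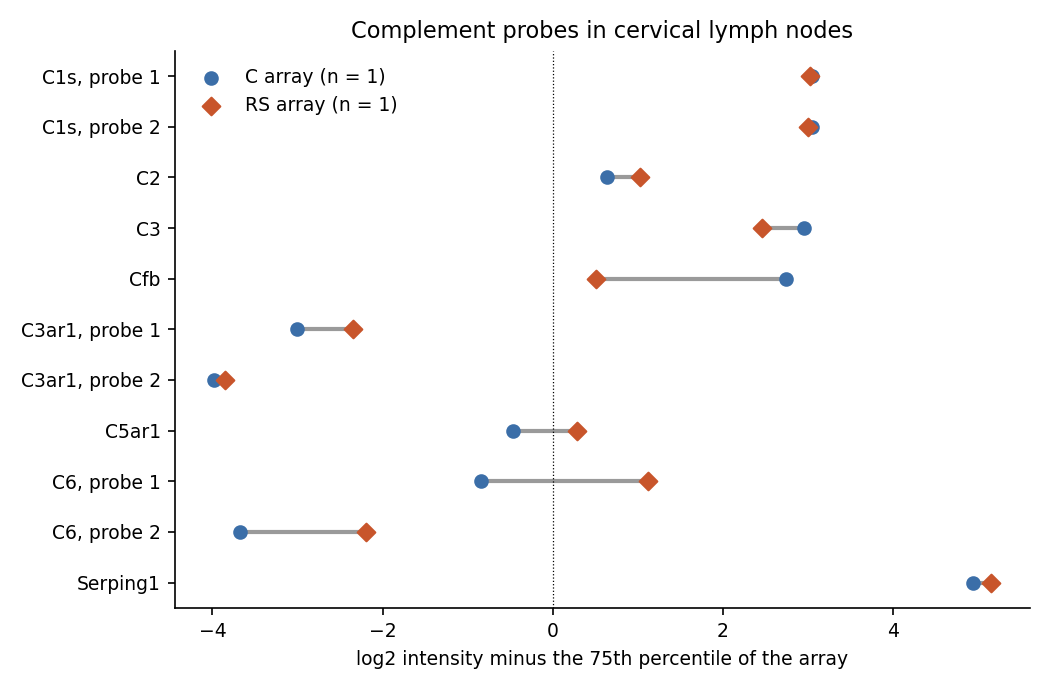
Normalized level of each complement probe on the C array (circles) and the RS array (diamonds), in log2 units relative to the 75th percentile, with 1 array per group. Cfb lay at 2.74 in C and 0.51 in RS, and probe 1 of C6 lay at -0.84 and 1.12.

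C1s, the protease that the C1 complex uses to cut C4 and C2, did not differ between the arrays beyond the spot error. Its probe 1 read 1560 in C, from spots of 1470 and 1660, and 1430 in RS, from spots of 1360 and 1510. The difference was -0.03 (spot error 0.14). The repeated spots of probe 1 overlapped between the arrays. Probe 2 read 1570 in C, from spots of 1550 and 1580, and 1410 in RS, from spots of 1400 and 1420, which did not overlap, and its normalized difference was -0.06 (spot error 0.14). The files place the probes at chr4:160736725-160736784 and chr4:160736736-160736795 on the minus strand of build rn4, so that they share most of their target. The accessions of probe 2 also list a locus similar to C1s, RGD1561715, so its signal may count both. The probe of that locus read 6210 and 6230, a difference of 0.10 (spot error 0.06).

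C2, the protease subunit of the classical convertase, which cuts C3, read 295 in C and 358 in RS. It was 1.3-fold higher on the RS array, a difference of 0.38 whose interval of -0.02 to 0.78 includes 0. Cfb, which supplies the corresponding protease subunit to the alternative pathway convertase, read 1260 in C and 251 in RS. It was 4.69-fold lower on the RS array, a difference of -2.23 with an interval of -2.63 to -1.83. Among the 9185 genes above background on both arrays with a difference below 0, Cfb was the 259th from the lowest. The probes of the neighbours lie 5412 bases apart on chromosome 20, at chr20:4071504-4071563 for C2 and chr20:4076976-4077119 for Cfb, both on the plus strand of rn4. The Cfb probe skips 84 bases of the genome within its span. The differences of the neighbours were 2.61 apart, with a combined spot error of 0.29.

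Many other probes that share the alternating stretch of the Cfb probe were dimmer on the RS array. A probe with a stretch of 8 or more such bases represented 161 genes. Of these, 144 (89.4%) were at least 2-fold lower and 1 was at least 2-fold higher. For the 102 genes with a stretch of exactly 8, as in the Cfb probe, the median difference was -2.80 and the quartiles were -3.00 and -2.27. Cfb, at -2.23, lay just above the upper of these quartiles. Of 20083 genes whose probe had a shorter stretch than 6, 495 (2.46%) were at least 2-fold lower. For 310 genes, a probe with a stretch of 6 or more bases and another probe without one were above background on both arrays. Where a gene had several such probes of a kind, their mean difference was taken. Over all 310, the probe with the stretch had a median of -0.16 and was at least 2-fold lower in 68, and the other probe had a median of 0.02 and was at least 2-fold lower in 3. In the 68, which were chosen for the low value of the probe with the stretch, the other probe was at least 2-fold lower in 1 and had a median of 0.03. Cfb had no other probe, so its level was not measured without the stretch, and the part of the stretch in its difference was not tested.

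**Figure D2:**
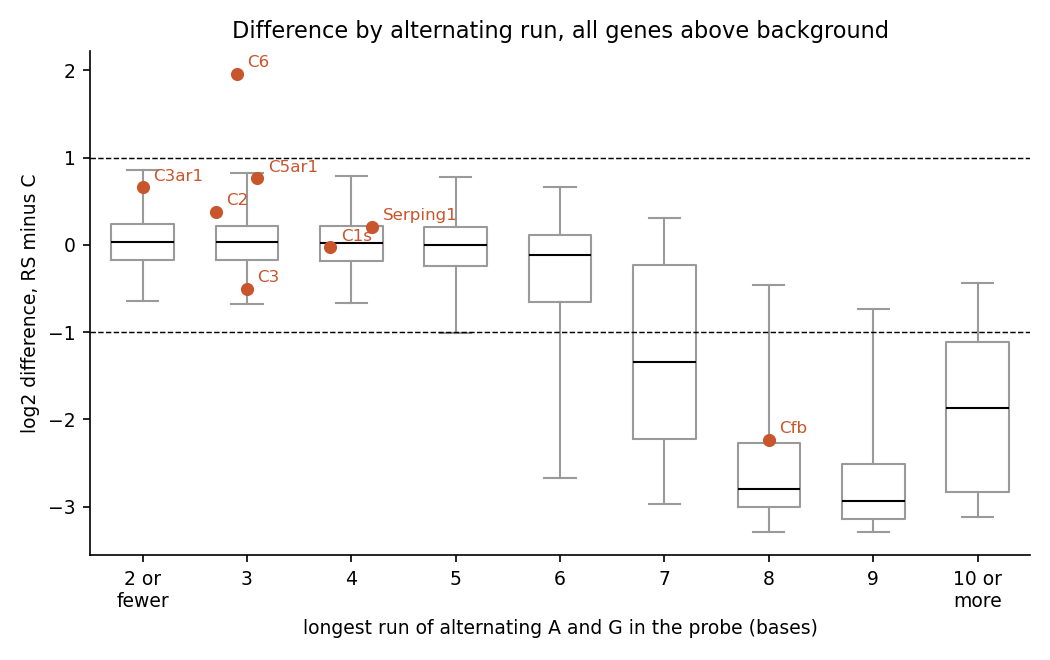
Log2 difference of RS minus C by the longest stretch of alternating A and G in the representing probe, for the genes above background, with boxes at the quartiles, a line at the median and whiskers at the 5th and 95th percentiles. Dots are the complement members, shifted sideways where they share a length; Cfb lies in the group with 8 alternating bases, whose median was -2.80, and the other members lie at 4 or fewer.

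C3, the component at which the pathways meet, was somewhat lower on the RS array. The C3 probe read 1460 in C and 967 in RS, 1.41-fold lower, with a difference of -0.50 and an interval of -0.90 to -0.10. The files place its probe on unassigned sequence of rn4, at chrUn:64513437-64513496 on the minus strand. It ranked 1599 among the 9185 genes with a difference below 0.

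The receptors among the members, C3ar1 and C5ar1, were higher on the RS array by the brightest probe, each by less than 2-fold. Other complement receptors are given below. C3ar1, the receptor that binds the small fragment of C3, had intensities of 23.4 in C and 34.7 in RS by probe 1, which lies at chr4:159324142-159324201. This was 1.58-fold higher, a difference of 0.66 with an interval of 0.17 to 1.15. Probe 2 of C3ar1, at chr4:159326458-159326517, read 12 and 12.3, a difference of 0.13 with an interval of -0.70 to 0.97. The probes of C3ar1 differed from each other by 0.53 with a combined spot error of 0.49, and the second was near the lowest intensity marked as above background, 9.45 in C and 8.52 in RS. With normexp background correction the difference of C3ar1 was 0.23, and as the mean over its probes it was 0.40, both under 1.5-fold. C5ar1, the main receptor of the small fragment of C5 on neutrophils and macrophages, had intensities of 136 and 215, and the files give its probe no position. It was 1.69-fold higher, a difference of 0.76 with an interval of 0.36 to 1.16.

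C6, a component of the membrane attack complex that joins after C5 is cut, was higher on the RS array by both of its probes. Probe 1, at chr2:53764375-53764434, had intensities of 106 in C and 384 in RS, 3.89-fold higher, with a difference of 1.961 and an interval of 1.56 to 2.36. Probe 2, at chr2:53748389-53748448 and shown by its sequence above, had intensities of 14.8 and 38.3, 2.78-fold higher, with a difference of 1.47 and an interval of 0.87 to 2.08. Both intervals lay above 0, and the probes differed by 0.49 with a combined spot error of 0.37. C6 ranked 118 among the 10029 genes above background on both arrays with a difference above 0.

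C7, the component that joins the complex after C6, was the name of no probe. A transcript that the array design describes as C7, ENSRNOT00000060343, had 2 probes outside the chosen gene names, which read 1.63-fold and 1.71-fold higher on the RS array. The first had intensities of 4450 in C and 6770 in RS, a difference of 0.70 (spot error 0.20). The second had intensities of 60.2 and 96.3, a difference of 0.78 (spot error 0.21). The files place the first at chr20:39266777-39266839 and the second at chr2:54199048-54199107, so that their positions disagree on the chromosome. A locus described as like C7, LOC103694886, was above background on the RS array alone, with intensities of 10.5 and 16.9. Its bound, taken against the lowest signal above background or the probe's own, whichever was higher, was 1.73-fold. Here the bound equalled the plain difference of 0.79 (spot error 0.41), whose interval of -0.01 to 1.59 includes 0.

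Serping1, the C1 inhibitor, which blocks C1r, C1s and the lectin pathway proteases, was bright on both arrays and differed little between them. The Serping1 probe read 5790 in C and 6250 in RS, at chr3:67968812-67968871. The difference was 0.21, 1.16-fold, with an interval of -0.19 to 0.61 that includes 0. The positions given are those in the files for rn4, and whether a probe lies in coding sequence or in a UTR was not determined here.

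**Figure D3:**
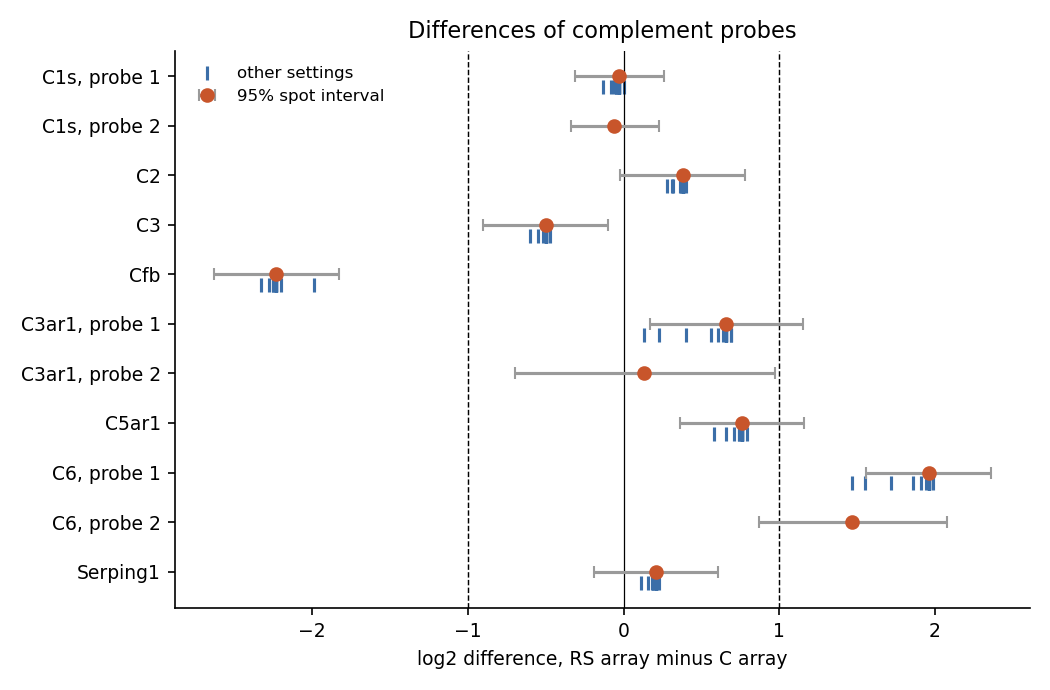
Log2 difference of RS minus C for each complement probe (dots), with bars for the 95% interval of the spot error and dashed lines at 2-fold. Ticks under a gene's brightest probe are its values under the other settings tried; the dots of both C6 probes and of Cfb lie past the dashed lines, and the bars of C1s, C2, Serping1 and probe 2 of C3ar1 cross 0.

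The other genes of complement were described from a list of 54 names, of which 45 were on the array and 31 were above background on at least 1 array. Of these 31, 1 was at least 2-fold higher and 0 at least 2-fold lower, beside 3.46% and 4.28% of all genes. The median difference was 0.13, with 21 genes above 0 and 10 below. The gene past 2-fold was Cfd, the protease that activates factor B and that fat cells secrete as adipsin, with intensities of 5250 and 10400 and a difference of 1.08 (spot error 0.07).

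The classical recognition subunits, which macrophages make, stayed close to 0 for C1qa and C1qb. C1qa read 6100 and 5690, a difference of -0.00, and C1qb read 14200 and 13500, a difference of 0.02. C1qc, the third chain of the same molecule, read 1170 and 1510, a difference of 0.47 (spot error 0.20). C1r, the protease that activates C1s, read 1100 and 1090, a difference of 0.09, and Masp1, a lectin pathway protease, read 30.4 and 22.3, a difference of -0.35. Of the lectin pathway recognition genes, 4 of 7 were above background, with a median of 0.20 and with Fcna at 0.25, Fcnb at 0.52 and Colec12 at 0.16.

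Among the central components, C4b differed by 0.26, C4a by -0.07 and Cfp, which stabilises the alternative convertase, by 0.33. C4a and C4b are near copies of each other, so that each probe may bind both transcripts. Of the other terminal components, C8g alone was above background, with a difference of -0.07, while neither array had C8a, C8b or C9 well above background. Among the receptors, Itgb2, the beta chain of the integrins that bind C3 fragments, differed by -0.12, Cr1l by 0.05 and Cr2, the B cell and follicular dendritic cell receptor, by 0.10. Among the regulators, 10 of 16 were above background with a median of 0.24, and C1qbp, Clu and Cd59 differed by -0.08, 0.13 and 0.38.

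Vsig4, a receptor of C3 fragments on tissue macrophages that is named after its value was seen, read 124 and 61.8, a difference of -0.91 (spot error 0.21).

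**Figure D4:**
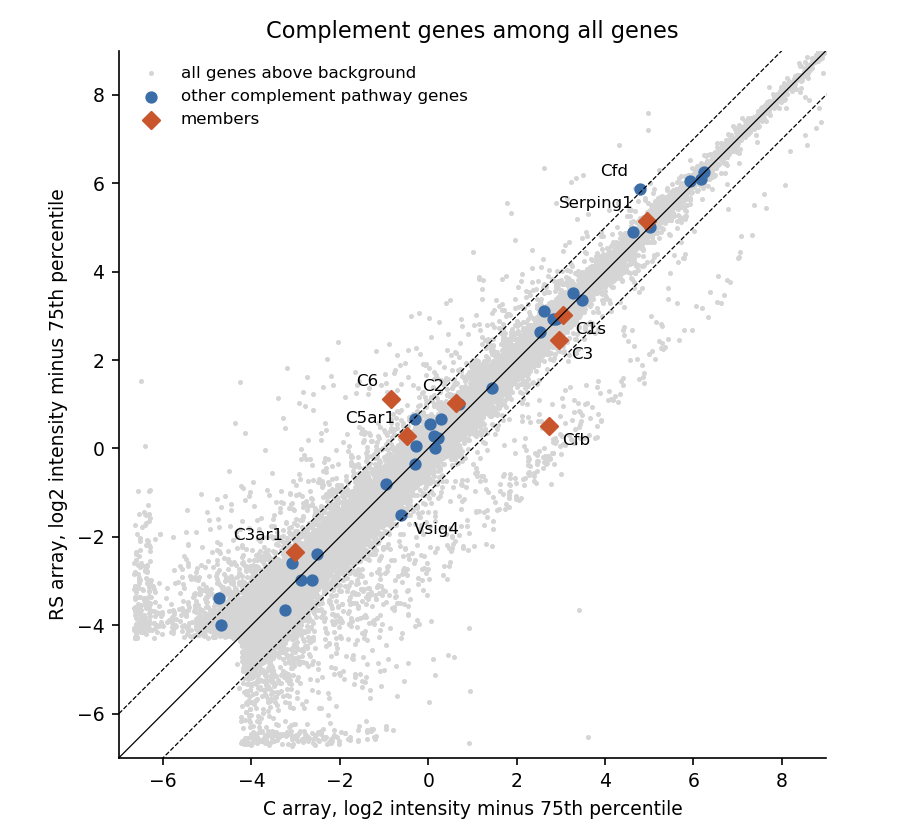
Normalized level of each gene on the C array (horizontal) against the RS array (vertical), as log2 intensity minus the 75th percentile, with all genes above background on at least 1 array in grey, complement members as diamonds and other complement genes as circles. The solid line marks equal levels and the dashed lines 2-fold; C6 and Cfd lie above the upper dashed line and Cfb below the lower one, and C4bpa, above background in RS alone, also lies above the upper line by its plain signals.

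Markers of other cell types differed between the arrays too, and in bulk tissue fewer cells of a type and less RNA per cell cannot be told apart. Of 11 fat cell markers, 9 were above background and 7 were higher by 2-fold or more, with a median of 2.58 and a summed intensity of 4400 in C and 12500 in RS. Lpl, a lipase that releases fatty acids from lipoproteins, was not among the 7 and read 2790 and 4360, a difference of 0.74. Retn, which encodes resistin, was among them and read 445 and 2490, while Plin1 and Pck1 were not well above background. Of 8 erythrocyte markers, 7 were above background and all 7 were higher by 2-fold or more, with a median of 2.60 and a summed intensity of 10200 and 57600. The globin genes Hba1, at 5950 and 33800, and Hbb-b1, at 3750 and 20500, were among them, and Slc4a1 was not well above background. These lists were higher on the same array as C6 and Cfd, and their part in those differences was not tested.

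Fibroblast markers were higher by 2-fold or more in 4 of 10 genes, Col1a1, Col1a2, Col3a1 and Pdpn. The list had 8 genes above 0 and 2 below, Ccl19 at -0.56 and Pdgfra at -0.39. These genes were named after their values were seen. The list had a median of 0.51 and a summed intensity of 27900 and 37600. Of 10 neutrophil markers, 6 were above background, with a median of 0.42 and a summed intensity of 148 and 823, and the 2 past 2-fold were S100a8 at 3.99 and S100a9 at 3.78, also named after their values were seen. Ltf and Mmp8, which encode granule proteins, were above background and differed by -0.97 and -0.41, and Csf3r, a receptor for a neutrophil growth factor, differed by 0.11. The remaining gene, the chemokine receptor Cxcr2, was above background in RS alone, with a difference of 0.73 (spot error 0.43) by its brightest probe. Mpo, Elane, Camp and Ngp, other genes of neutrophil granules, were not marked as well above background in C or RS. The part of neutrophils and fibroblasts in the differences of C5ar1, C3ar1 and C6 was not tested. The macrophage, B cell and T cell lists, which mark the cells of a lymph node, had medians of -0.04, -0.05 and -0.16 with 9 of 9, 7 of 7 and 10 of 10 genes above background, and Msr1, named after its value was seen, was the gene of these lists past 2-fold, at -1.71. Endothelial markers had a median of 0.09 in 8 genes, of which 1, Emcn, named after its value was seen, passed 2-fold at 1.17. Of 10 markers of hepatocytes, the main source of complement in plasma, 3 were above background, with a median of 0.04 and a summed intensity of 3580 and 3410. Apoa1, Apoa2, Ttr, Serpina1, Fgb, Fgg and Hpx were well above background on neither array, and Alb, the 1 hepatocyte marker past 2-fold, was so in RS alone, at least 2.54-fold higher with intensities of 2.43 and 22.4.

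**Figure D5:**
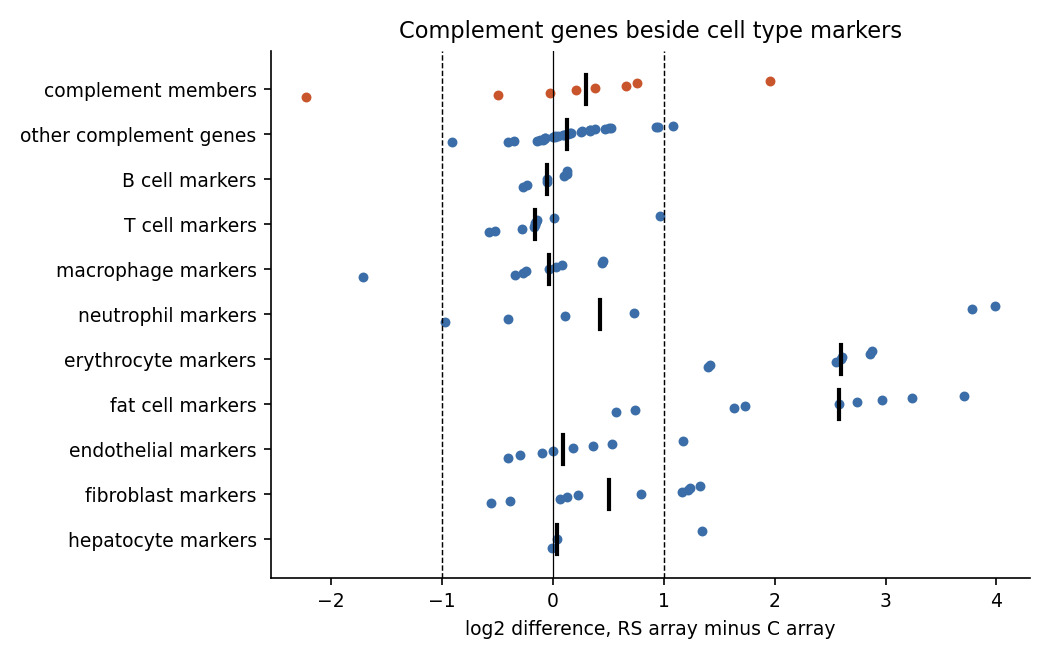
Log2 difference of RS minus C for the genes above background of the complement members, the other complement genes and each cell type marker list (dots), with a bar at each median and dashed lines at 2-fold. The erythrocyte and fat cell markers had medians of 2.60 and 2.58, and the other lists had medians between -0.16 and 0.51.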

How the data were processed

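Labeled RNA from cervical lymph nodes was hybridized to the Agilent SurePrint G3 Rat GE design, 1 array each for C and RS, with both arrays on 1 slide and read in 1 scan. The authors deposited spot intensity values from Feature Extraction 11.5.1.1, background-subtracted within an array and not normalized between arrays, and the scanner's flags for spots above background and outliers. They also deposited log2 values per probe, 100% of which differed from those used here by under 0.1 log2 units.

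Control spots and outlier spots (489 on C, 660 on RS) were left out. Repeated spots were averaged per probe on the log2 scale and shifted by the 75th percentile of the array, which follows the study's methods. A probe was above background when more than 50% of its spots were marked so. A gene above background on 1 array had a lower bound as its difference. Spot errors came from the signal error that the scanner software gives each spot, combined over the spots of a probe and over both arrays. The SD of repeated spots was not used for them. In C, the median of this SD over probes with many spots was 0.38 log2 units below an intensity of 8 and 0.052 at 512 and above.

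All members are named with all probes. Other complement genes are named past 2-fold or as the 3 brightest of a role. The values of 1 complement gene are not reported here. Marker genes are named as the 2 brightest of a list whose median passed 2-fold, or where defining markers were not above background. The members and lists were chosen with earlier results of these data known. Of 15 alternatives, 13 were chosen at the outset and 2 after seeing the data. Steps were tested on simulated data. Gene names are those of the array design, and the accessions of all 11 member probes matched the RefSeq table of GRCr8 under the same symbol. Software was Python 3.11.15 (numpy 2.4.6, pandas 2.3.3, matplotlib 3.10.9) and, for normexp, limma 3.58.1 in R 4.3.3.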

Additional observations from a re-analysis of the deposited data

How the results depend on the processing

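With 1 array a group, no array could be left out. No paired analysis was possible because C and RS have 1 array each. Over 15 alternatives, 112 of 119 differences of members moved by no more than 1 spot error and 7 moved by more. With normexp these 7 included C6 at 1.55, Cfb at -1.99 and C3ar1 at 0.23. The others were C6 at 1.72 and C3ar1 at 0.40 with the mean over probes, and C6 at 1.47 and C3ar1 at 0.13 with the dimmest probe of a gene. Reversal was counted only for members past 2-fold in the main setting, C6 and Cfb, and 0 reversed. The count of unmoved values was partly fixed in advance. All members were above background on both arrays, so the background filters, the plain ratio and the added error threshold could not change their values. Keeping outlier spots also left them the same. At 1.5-fold, C5ar1 was no longer past it with normexp (0.58) nor C3ar1 without scaling (0.56), and C3 passed it without scaling (-0.60). Cfb ranged from -2.33 to -1.99 over the 14 settings that gave it a value. With alternating stretches of at least 6 bases left out, Cfb had no value, the number of members lower by 2-fold or more was 0, and the members' median was 0.38. The dimmest probe and this setting were chosen after seeing the data.

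Of the other complement genes, 0 were higher by 2-fold or more without scaling, 2 with the mean over probes, 2 with the dimmest probe (Cfd in both), 2 with the plain ratio instead of the bound (Cfd and C4bpa) and 4 without a filter on background. Vsig4 was the 1 gene lower without scaling, and C9, not above background, the 1 gene lower without a filter. Over all genes, 730 higher and 903 lower became 234 and 378 with normexp, 2031 and 2148 without a filter, 493 and 601 with genes above background on both arrays only, and 716 and 498 with alternating probes left out, which moved the share of higher calls from 44.7% to 59%. Without scaling the median of all genes moved from 0.016 to -0.084. The cause of these shifts was not tested beyond the settings' own construction. Signal limits C3ar1 most, with its second probe near background.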
